A study of Homo sapiens with 4 samples.

Results

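The BCL2 family decides whether the outer mitochondrial membrane stays closed, and 10 of its genes were examined here in K562 cells given a drug for 4 h. They are the survival genes BCL2, BCL2L1 and MCL1, the effectors BAX and BAK1, and the BH3-only genes BID, BAD, BBC3, PMAIP1 and BCL2L11. A gene belonged to the set when a gene probe of the array carried its name, and each of the 10 had 1 probe among the 14297 gene probes of the array.

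K562 is a human erythroleukemia cell line that carries the BCR-ABL fusion. RNA of cells treated with AC-1041, a thalidomide analog, was hybridised together with RNA of control K562 cells on each of 4 two-colour Agilent arrays. All cells were sampled at 4 h, and the sample labels call the control cells untreated, whereas the methods of the study name a DMSO control. Arrays 1 and 2 had the treated RNA in Cy5, and arrays 3 and 4 had it in Cy3. No dose is given in the labels. The methods of the study say that replicate samples of treated and of control cells were collected, and the dyes swapped, but neither they nor the labels say which sample went on which array, so the p-values measure the spread between these arrays only, which may be technical. The model is 1 cell line at a single time, without a matched normal cell.

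Survival proteins (BCL2, BCL-XL from BCL2L1, and MCL1) hold the effectors BAX and BAK inactive. BH3-only proteins bind the survival proteins or the effectors through a short helix, and once the effectors are freed they form pores that release cytochrome c. BBC3 encodes PUMA and PMAIP1 encodes NOXA, both known to be induced at the transcript level by cell stress. NOXA binds chiefly MCL1, a short-lived protein, whereas PUMA and BIM (from BCL2L11) bind all the main survival proteins. In erythroid cells BCL-XL is the survival protein known to matter most late in maturation.

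The probes of the genes on which the results turn are shown first, because a ratio on an array reports only the stretch of transcript that its probe binds. Each probe had 60 bases, of which the first 30 are given in transcript direction, with positions on hg18 as in the array files.
PMAIP1 (chr18:55721258-55721287, plus strand): ttagagaatcgttctagtgtttttgccgaa
BBC3 (chr19:52416044-52416073, minus strand): agtctgggagtggggagggatggcccagcc
MCL1 (chr1:148817392-148817421, minus strand): atcgaaccattagcagaaagtatcacagac
BCL2L1 (chr20:29773606-29773635, minus strand): gctttcccagaaaggatacagctggagtca
The exon or untranslated region in which each probe lies was not analysed here. Which transcript forms of a gene its probe binds was not analysed either, so the BCL2L1 value was not assigned to BCL-XL. Of the other probes, that of BAX began 13 bases after a RefSeq start site of the gene, with its first 38 bases in the promoter window, and so bound the 5′ end of the transcript. The files place 36 of the 60 bases of the BCL2 probe.

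Of the 14297 gene probes, 8852 were fitted. These had a signal well above background on 2 or more arrays, in either channel, and enough spots left once outlier spots were removed. With outlier spots kept, 9191 probes could be fitted. All 10 members passed, and no spot was saturated. Per channel, the number of probes well above background ran from 5941 to 7403 on arrays 1 and 2 and from 8982 to 9515 on arrays 3 and 4. Over the tested probes, log2 ratios (treated over control) correlated at 0.81 within the first pair of arrays and at 0.94 within the second. Across the pairs, which differ in dye orientation, the correlation was negative (-0.29 to -0.12). Each orientation was run on its own pair of arrays, so an effect of the dye and the quality of the arrays cannot be told apart. The fit therefore held a term for the dye. Its standard errors rest on how far arrays within a pair differed, not on the gap between pairs. For each probe, limma drew that spread towards a value shared by all probes. Each SD, in contrast, is over all 4 arrays. Of the erythroid markers on the array, 6 of 8 were well above background everywhere, that is, on all arrays in both channels. Of 10 markers of other cell types, 4 (MS4A1, ALB, CDH1 and CDH5) were never well above background and 2, among them EPCAM, were so everywhere. Of the 6 that could be tested, 3, among them EPCAM and CD3D, were lower in treated cells and 0 were higher, beside 13.0% and 24.3% of all probes tested.

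Treatment raised 2 of the 10 members, both of them BH3-only genes, and lowered 2 others by small amounts. PMAIP1 rose 2.36-fold and BBC3 rose 2.01-fold, and each was higher on 4 of 4 arrays. BCL2L1 was 1.22-fold lower and BAD 1.19-fold lower. These calls were made at an adjusted p under 0.05 (limma, Benjamini-Hochberg over 8852 probes), a threshold that 24.3% of all probes tested passed as higher and 13.0% as lower. The shares of members called, 2 of 10 in each direction, are near those of the background. With median centring of the arrays in place of loess, 79.5% of the calls over all probes were higher, against 65.2% with loess.

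**Figure D1:**
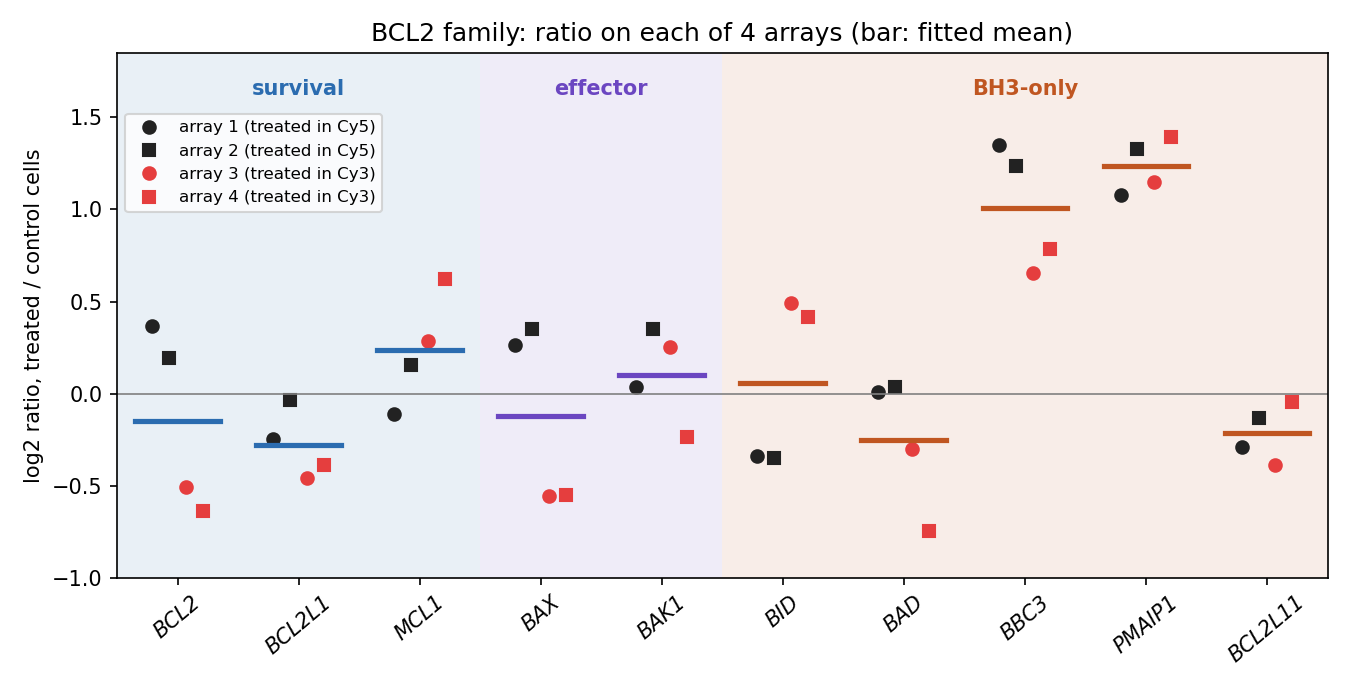
Log2 ratio of treated to control K562 cells for the 10 members on each array (points, n = 4 arrays) with the fitted mean (bar), ordered by role. PMAIP1 and BBC3 lie above 0.65 on every array, and for BCL2, BAX and BID the arrays with treated RNA in Cy5 (black) and in Cy3 (red) lie on opposite sides of 0.

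Among the BH3-only genes PMAIP1 changed most. Its normalized level (log2 intensity) was 12.07, 12.39, 12.12 and 12.27 in the control channel of arrays 1 to 4 and 13.15, 13.72, 13.27 and 13.66 in the treated channel. Every treated value was above every control value, which held for 6.82% of the 7991 probes measured on all 4 arrays and for 2 of the 10 members. The reverse, every treated value below every control value, held for 3.04% of those probes and for 0 members. Its log2 ratio was 1.08, 1.33, 1.15 and 1.39 on arrays 1 to 4, and the orientations gave nearly the same mean, 1.20 (arrays 1 and 2) and 1.27 (arrays 3 and 4). The fitted log2 ratio was 1.24 ± 0.15 (SD, n = 4 arrays), with a standard error of 0.076, a 95% confidence interval from 1.06 to 1.41 and a limma adjusted p of 2.0e-05. It ranked 66 from the top among the ratios of the 8852 probes, and BBC3 ranked 127.

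BBC3 had control levels of 11.59, 11.77, 11.86 and 11.93 and treated levels of 12.94, 13.01, 12.51 and 12.72 on arrays 1 to 4. BBC3 was the other member whose treated values all lay above its control values. Its log2 ratio was 1.35 and 1.24 on arrays 1 and 2, where Cy5 marked the treated RNA, and 0.66 and 0.79 on arrays 3 and 4, so its size differed between the pairs of arrays while its direction did not. The fitted value was 1.01 ± 0.34 (SD, n = 4 arrays), with a 95% confidence interval from 0.85 to 1.16 and a limma adjusted p of 2.6e-05. Without the dye term, which leaves the gap between orientations in the error, the adjusted p was 0.067 for BBC3 and 0.027 for PMAIP1. The exact sign-flip permutation test over the 4 arrays (two-sided) gave p = 0.125 for either gene, the smallest it can give.

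The other 3 BH3-only genes, whose products are BIM, BAD and BID, were not called higher. BCL2L11 was below 0 on all 4 arrays, at -0.29, -0.13, -0.39 and -0.05, and its fitted log2 ratio of -0.22 ± 0.15 (SD, n = 4 arrays) had a limma adjusted p of 0.060. It was dim, being well above background on 2 arrays in each group's channel, and its value moved with the processing. It was -0.64 with the processed signals of Feature Extraction and -0.63 in the series table, neither past the threshold (adjusted p = 0.074 and 0.096). Without array 3 it was -0.13 (adjusted p = 0.39), and without array 2 it was called lower at -0.26 (adjusted p = 0.031). BAD, which is inactive while bound to 14-3-3 proteins, had log2 ratios of 0.01, 0.03, -0.30 and -0.75. The arrays with treated RNA in Cy5 showed next to no difference, and the fitted value of -0.25 ± 0.36 (SD, n = 4 arrays; limma adjusted p = 0.045) came from arrays 3 and 4. Without array 4 it was -0.14 (adjusted p = 0.38). BID, whose product a death-receptor caspase cleaves into its active form, had log2 ratios of -0.34, -0.35, 0.49 and 0.42, below 0 in the first orientation and above it in the second. Its mean of 0.06 ± 0.46 (SD, n = 4 arrays) was far smaller than that gap, and its limma adjusted p was 0.53.

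**Figure D2:**
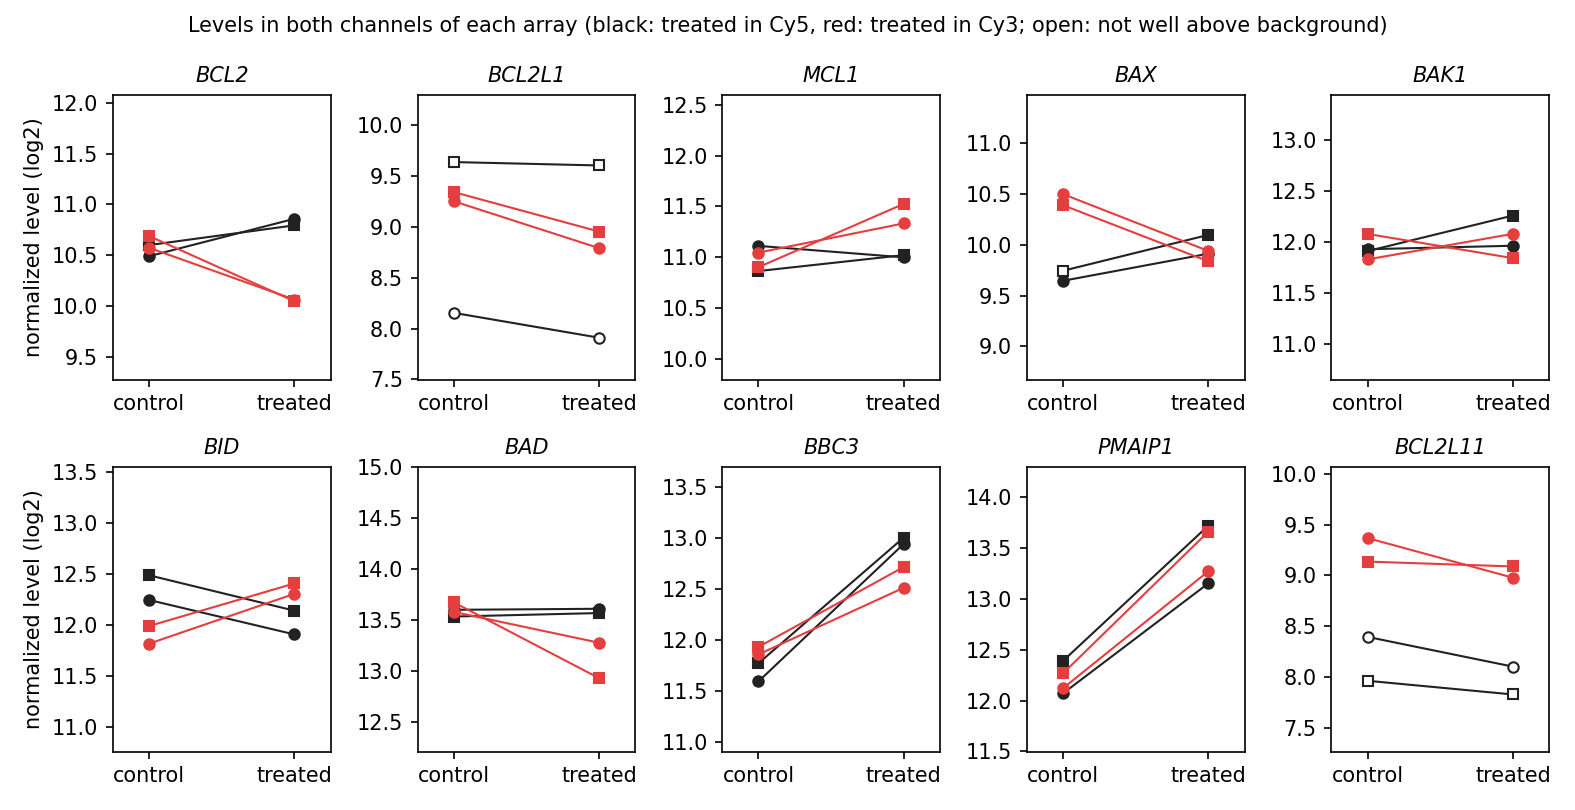
Normalized level (log2 intensity) of each member in the control and the treated channel of the 4 arrays, with a line joining the channels of 1 array. Every panel spans the same range of log2 units, open symbols were not well above background, and only for BBC3 and PMAIP1 do all treated values lie above all control values.

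None of the survival genes was called higher. BCL2L1 was lower on all 4 arrays, with log2 ratios of -0.24, -0.03, -0.46 and -0.39. Its fitted value was -0.28 ± 0.19 (SD, n = 4 arrays), with a standard error of 0.069 and a limma adjusted p of 0.014. The probe was well above background on arrays 3 and 4 only, and the value on arrays 1 and 2 alone was -0.14 (adjusted p = 0.40). Leaving out array 3 or array 4 ended the call (adjusted p = 0.11 and 0.095), although the ratio stayed about as large, at -0.26 and -0.30. Treated levels ran from 7.91 to 9.60 and control levels from 8.15 to 9.64, ranges that largely overlap because arrays differed more than channels did.

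MCL1, the partner of NOXA, had log2 ratios of -0.11, 0.16, 0.29 and 0.62 on arrays 1 to 4. Its level was 10.98 ± 0.12 in control cells and 11.22 ± 0.25 in treated cells (SD, n = 4 arrays), and the groups overlapped. The fitted value was 0.24 ± 0.31 (SD, n = 4 arrays), and the limma adjusted p of 0.051 lay just above the threshold. Small changes of method moved it across: it was called higher under 8 of 17 alternatives, with an adjusted p of 0.0089 after median centring, but its value was 0.02 on arrays 1 and 2 alone. BCL2 had log2 ratios of 0.37, 0.19, -0.51 and -0.64, and so it too changed sign with the orientation. Its mean was -0.15 ± 0.50 (SD, n = 4 arrays; limma adjusted p = 0.13), with a 95% confidence interval from -0.30 to 0.01.

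Neither effector passed the threshold. BAX had log2 ratios of 0.27, 0.35, -0.56 and -0.55, opposite in sign between the orientations, and a mean of -0.12 ± 0.50 (SD, n = 4 arrays; limma adjusted p = 0.17). The BAK1 values were 0.03, 0.35, 0.25 and -0.24, which differed as much within an orientation as between them, and their mean was 0.10 ± 0.26 (SD; adjusted p = 0.45). The 95% confidence intervals ran from -0.27 to 0.02 for BAX and from -0.12 to 0.32 for BAK1, and a p above the threshold does not show that their levels were the same in both groups.

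By role, 2 of 5 BH3-only genes were higher and 1 was lower, 0 of 3 survival genes were higher and 1 was lower, and 0 of 2 effectors were called in either direction. Beside these small counts, 24.3% of all probes tested were higher and 13.0% were lower. Median log2 ratios were 0.06 for the BH3-only genes, -0.15 for the survival genes and -0.01 for the effectors, beside 0.02 for all probes tested. The members within the BH3-only group spread from -0.25 (BAD) to 1.24 (PMAIP1), wider than the survival group, which ran from -0.28 (BCL2L1) to 0.24 (MCL1). Set against MCL1 on the same array, the PMAIP1 log2 ratio was larger by 1.19, 1.17, 0.86 and 0.77 on arrays 1 to 4. This difference averaged 0.999 ± 0.21 (SD, n = 4 arrays), and BBC3 exceeded MCL1 by 0.77 ± 0.61, in each case on 4 of 4 arrays. Relative to BCL2L1, the mean differences were 1.52 ± 0.22 for PMAIP1 and 1.29 ± 0.21 for BBC3 (SD, n = 4 arrays). Between PMAIP1 and BBC3 themselves the difference was 0.23 ± 0.40 (SD), smaller than its spread. These differences between genes were not tested, since an exact test over 4 arrays cannot go below p = 0.125.

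**Figure D3:**
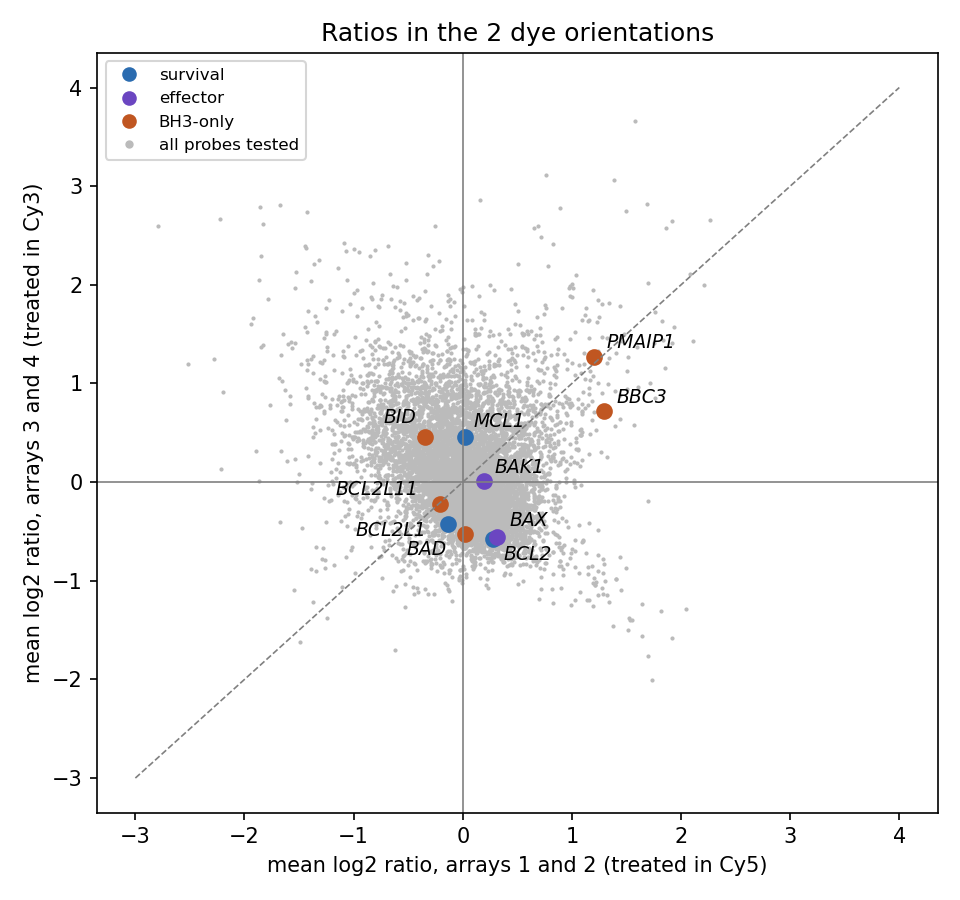
Mean log2 ratio of each probe tested (grey, n = 8852) and of the 10 members (coloured by role) on the arrays with treated RNA in Cy5 (x axis) against those with it in Cy3 (y axis), with the line of equal values dashed. PMAIP1 lies next to the line at 1.20 and 1.27, whereas BCL2 and BAX lie to the right of 0 and below it.

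For 6 of the 10 members the dye term passed the threshold (BCL2, MCL1, BAX, BID, BAD and BBC3), as it did for 58.2% of all probes tested. Its values ran from -0.40 for BID to 0.43 for BAX and BCL2, and it was -0.03 for PMAIP1 (limma adjusted p = 0.73). Over the 8852 probes the dye term rose with the share of G and C bases in the probe, with a Pearson correlation of 0.60 and a Spearman correlation of 0.68, given as a description because all probes share the same 4 arrays. The BAX probe, with 83.3% G and C, was the most GC-rich of the members, whose median was 50.8% against 43.3% for all probes. A further loess on GC content, chosen after seeing the data, left 4042 of 8852 probes with a dye term past the threshold instead of 5156. Under it the BAX ratios shrank to 0.25, 0.13, -0.26 and -0.04, while those of BID stayed at -0.37, -0.38, 0.52 and 0.44. BBC3 then had ratios from 0.83 (array 3) to 1.28 (array 1), closer to each other than before, and PMAIP1 had a mean of 1.23. The BAD call was lost (adjusted p = 0.098), and MCL1 was called higher (adjusted p = 0.049) and BCL2L11 lower (adjusted p = 0.030).

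**Figure D4:**
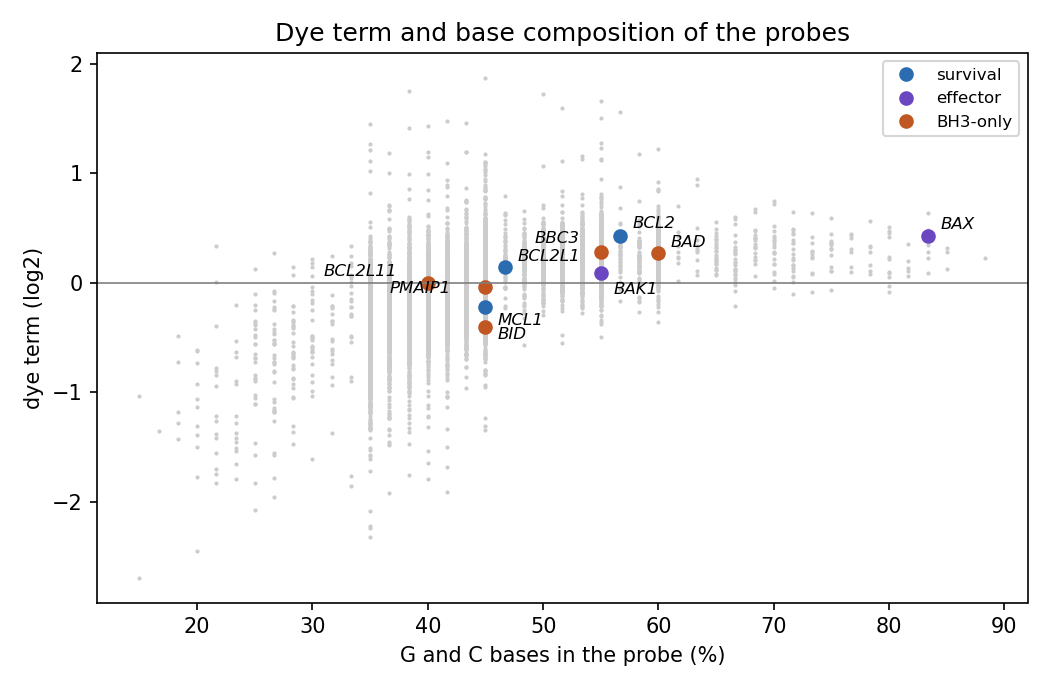
Dye term of the fit (log2, y axis) against the share of G and C bases in the probe (%, x axis) for all 8852 probes tested (grey) and the 10 members (coloured by role). BAX, at 83.3%, has a dye term of 0.43, whereas PMAIP1, MCL1 and BID share 45% and have dye terms of -0.03, -0.22 and -0.40.

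PMAIP1 and BBC3 were above 0 on 4 of 4 arrays, a pattern that 16.7% of the 7991 probes measured on all 4 arrays showed. BCL2L1 and BCL2L11 were below 0 on 4 of 4, a pattern of 9.19% of them. Among 7974 genes, those whose ratios over the 4 arrays lay nearest to those of PMAIP1 (Euclidean distance in log2 units) were TNFAIP1 at 0.22, CENPQ at 0.22 and ZNF627 at 0.22, with mean log2 ratios of 1.28, 1.22 and 1.30.

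Because PMAIP1 and BBC3 rose together, their promoters are shown, from RefSeq on GRCh38.p14. The first line holds the 250 bases before the PMAIP1 start site (chr18:59899746-59899995, plus strand), with capitals at a match to the CRE core, TGACGT, read on the opposite strand, at position -56 from the start. The second holds 30 bases of the BBC3 promoter (chr19:47232762-47232791, minus strand), with capitals at a match to the AP-1 motif TGANTCA that begins at position -113.
PMAIP1: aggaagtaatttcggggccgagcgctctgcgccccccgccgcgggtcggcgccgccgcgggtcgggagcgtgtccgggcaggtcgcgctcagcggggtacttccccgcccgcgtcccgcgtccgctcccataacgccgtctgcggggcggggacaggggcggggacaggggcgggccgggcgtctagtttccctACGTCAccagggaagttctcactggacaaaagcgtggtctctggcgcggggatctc
BBC3: gcactggaaggTGAGTCActctggtgaggc
Both strands of windows from 250 bases before to 50 after the start were searched, and neither match overlaps another motif searched. The CRE core, bound by ATF and CREB proteins, occurred in 7.98% of 35116 promoter windows and among the members in PMAIP1 and BAD. The AP-1 motif, bound by FOS and JUN dimers, occurred in 7.71% and in BBC3 alone of the members, and the E-box CACGTG in 7.26% and in BAX, BID and BBC3. The GC box GGGCGG occurred in 45% of windows and in 7 members. A FOXO motif, GTAAACA, was present in 3.42% and in BCL2L11. TGATGNAA, the core of the CHOP and ATF4 composite element, was present in 3.62% of windows and in no member window. MCL1 had no window in the table. A match is a description of letters, not a site of binding.

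The transcription regulators known for these genes were measured on the same arrays. Of 19 such genes, 16 were tested, of which 9 were higher and 2 were lower, beside 24.3% and 13.0% of all probes, and their median log2 ratio was 0.27. ATF3, a stress-induced factor of the CREB family, was highest, with log2 ratios of 1.61, 2.56, 2.05 and 2.17 and a mean of 2.10 ± 0.39 (SD, n = 4 arrays; limma adjusted p = 2.2e-05). JUN, a subunit of AP-1, had 1.90, 2.31, 1.35 and 1.52, a mean of 1.77 ± 0.43. DDIT3, which encodes CHOP, reached 1.64 ± 0.31, and TRIB3, a pseudokinase induced by CHOP and ATF4, reached 1.43 ± 0.33 (SD, n = 4 arrays). All 4 were higher on every array, and their part in the PMAIP1 and BBC3 values was not tested. The other higher genes, from 0.25 to 0.72, were ATF4, FOXO3, HIF1A, FOXO1 and NFKB1. ATF4 and FOXO3 were higher on every array. HIF1A had a mean of 0.39 ± 1.01 (SD, n = 4 arrays). Its sign changed with the orientation, below 0 on arrays 1 and 2 and above 0 on arrays 3 and 4. FOXO1 had 0.07, -0.16, 0.59 and 0.63 on arrays 1 to 4, so its higher value came from arrays 3 and 4. NFKB1 had 0.77, 0.35, -0.15 and 0.03, so its higher value came from arrays 1 and 2. The 2 lower genes were GATA1 at -0.56 ± 0.32 and STAT5A at -0.46 ± 0.17 (SD, n = 4 arrays). These lower genes and the other higher ones were named after their values were seen. GATA1 and STAT5 are known to drive BCL2L1 in erythroid cells, and the second STAT5 gene, STAT5B, had a log2 ratio of 0.0067 (adjusted p = 0.96). Of 8 erythroid markers tested, 4 were lower, among them KLF1 (-0.70), GATA1 and TAL1 (-0.29), and 0 were higher. The summed level of the 8 markers (log2) ran from 18.16 to 19.37 in the treated and from 18.14 to 19.57 in the control channels. Their part in the BCL2L1 value was not tested, and in RNA of whole cultures fewer cells of a type and less RNA per cell cannot be told apart. The probes of the other 3 regulators were not among those fitted.

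Of 15 other genes of the BCL2 family, 12 were tested, of which 5 were higher and 1 was lower, at a median log2 ratio of 0.16. Among all probes tested, 24.3% were higher and 13.0% were lower. BCL2L13, a protein of the outer mitochondrial membrane, had log2 ratios of 0.63, 0.69, 0.56 and 0.65, with little spread between orientations, and a mean of 0.63 ± 0.05 (SD, n = 4 arrays; limma adjusted p = 0.00021). BCL2L2, which encodes the survival protein BCL-W, had 0.55, 0.39, 0.38 and 0.35, a mean of 0.42 ± 0.09 (SD; adjusted p = 0.0017). It was the one survival-type gene called higher, since BCL2A1 had 0.16 ± 0.11 (SD; adjusted p = 0.098). BNIP1 reached 0.38 ± 0.19 and BNIP2 0.33 ± 0.31 (SD, n = 4 arrays). Outside the rule for named genes, the BH3-only genes BMF, at 0.25 ± 0.26, and HRK, at -0.19 ± 0.48 (SD), were called higher and lower. HRK had 0.29, 0.14, -0.61 and -0.60 on arrays 1 to 4, a sign that changed with the orientation. The probes of BCL2L10, BCL2L14 and PXT1 were not among those fitted.

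Downstream of BAX and BAK1, 16 genes were tested, of which 6 were higher and 3 were lower, and their median log2 ratio was 0.02. The shares over all probes tested were 24.3% higher and 13.0% lower. APAF1, the scaffold that cytochrome c turns into the apoptosome, rose 2.11-fold, with log2 ratios of 0.57, 0.88, 1.35 and 1.49 and a mean of 1.07 ± 0.43 (SD, n = 4 arrays; limma adjusted p = 3.5e-05). CASP9, the caspase that it activates, had 0.49, 0.68, 0.36 and 0.36, a mean of 0.47 ± 0.15 (SD; adjusted p = 0.0011). The inhibitor of apoptosis genes BIRC3 and BIRC2 were called as well, at 0.81 ± 0.83 and 0.35 ± 0.51 (SD, n = 4 arrays), although neither was higher on every array. On arrays 1 to 4, BIRC3 had -0.19, 0.43, 1.48 and 1.51. BIRC2 had -0.10, -0.08, 0.73 and 0.86, so its higher value came from arrays 3 and 4. XIAP (0.26 ± 0.33) and DIABLO (0.22 ± 0.12), which encodes its antagonist SMAC, were the other higher genes. The lower ones were the channel gene VDAC1 at -0.29 ± 0.27, the nuclease gene ENDOG at -0.26 ± 0.25 and OPA1, which keeps cristae closed, at -0.24 ± 0.31 (SD, n = 4 arrays). These last 5 were named after their values were seen. OPA1 had -0.32, -0.65, 0.005 and 0.004 on arrays 1 to 4, so its lower value came from arrays 1 and 2. XIAP had -0.06, 0.0002, 0.55 and 0.53, so its higher value came from arrays 3 and 4. CYCS, which encodes cytochrome c, had -0.33, -0.72, 0.36 and 0.41, and its mean of -0.07 did not pass the threshold (adjusted p = 0.53).

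**Figure D5:**
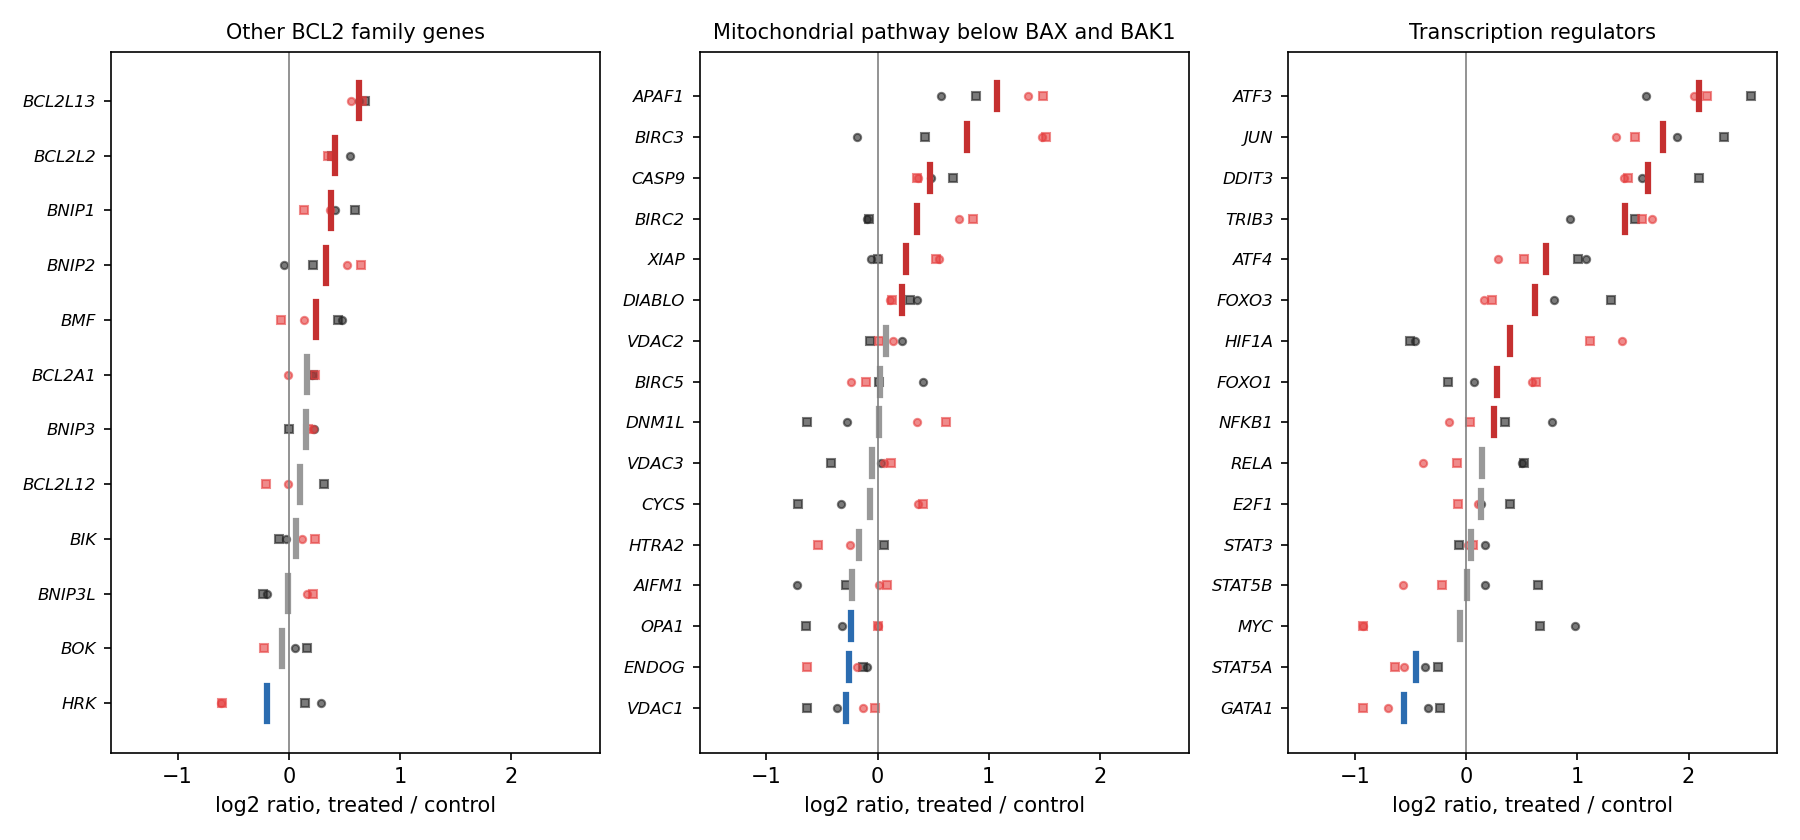
Log2 ratio of treated to control K562 cells on each array (points: black with treated RNA in Cy5, red with it in Cy3) for the tested genes of 3 lists, with the fitted mean as a bar (red: higher, blue: lower, grey: adjusted p of 0.05 or above). ATF3, JUN, DDIT3, TRIB3 and APAF1 have means above 1, and BCL2L13 is the highest of the other family genes at 0.63.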

How the data were processed

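The authors labelled amplified RNA of treated and control K562 cells with Cy5 and Cy3, scanned the arrays and quantified them with Agilent Feature Extraction 9.5.1.1, with probe positions on hg18 per the file headers. The deposited intensity values (mean signal and local background of both channels) were used here. The deposited files and the series table also hold log10 ratios made by the authors' software, which served as an alternative.

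Backgrounds were corrected by normexp (offset 50), and ratios were normalized within arrays by loess (span 0.3), with control and outlier spots at weight 0. Channel levels came from the same ratios after mean log intensities were quantile-normalized between arrays (Aquantile). Outlier spots, from 1.57% to 8.08% of probes per array, were left out. Probes that Feature Extraction marked as well above background on 2 or more arrays, in either channel, were fitted with limma 3.58.1 (R 4.3.3). Probes with too few spots left after outlier removal were not fitted. The model held terms for treatment and dye, and p-values were Benjamini-Hochberg adjusted over 8852 probes. Only the limma fit was tested on simulated data, made of log ratios with independent noise. That test did not cover background correction or loess. The number of arrays, 4, limits the precision.

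The members and the gene lists were chosen with earlier results of these data known, and lists were counted, not tested. All members are named, and of each further list the up to 4 genes past the threshold with the largest absolute log2 ratio; other genes called were named after their values were seen. Names came from the files and, for 12002 of 14297 probes, through accessions from a RefSeq table of GRCh38.p14. Some of these results are left out of the text. HUWE1 was not found on the array by name. Alternatives covered background, normalization, dim-probe filter, outlier spots, dye term, variance prior, array weights, threshold and single arrays.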

Additional observations from a re-analysis of the deposited data

How the results depend on the processing

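PMAIP1 was past the threshold under 17 of 17 alternatives (log2 ratio from 1.18 to 1.33) and BBC3 under 16 of 17 (from 0.72 to 1.29), the exception being the fit without the dye term (1.01, adjusted p = 0.067). The members called higher numbered 1 without the dye term and 4 on arrays 3 and 4 alone (MCL1, BID, BBC3 and PMAIP1), and from 2 to 3 when an array was left out. The members called lower numbered 1 with outlier spots kept, no filter on dim probes, median centring, the series table or the processed signals of Feature Extraction (BCL2L1 each time), 1 when both channels had to be well above background on all arrays (BAD), 0 without the dye term, 0 on arrays 1 and 2 alone, 5 on arrays 3 and 4 alone, 0 at an adjusted p under 0.01, and from 0 (without array 4) to 3 when an array was left out, with 1 (BAD) without array 3. Over all probes, 2155 were higher and 1152 lower in the fit reported. The higher ones numbered 1342 with both channels above background, 52 without the dye term, 1323 on arrays 1 and 2 alone, 3392 on arrays 3 and 4 alone, 1353 at an adjusted p under 0.01, and from 1008 (without array 4; 1241 without array 3) to 2590 when an array was left out. The lower ones numbered 589 after median centring, 4 without the dye term, 2781 on arrays 3 and 4 alone, 468 at an adjusted p under 0.01, and from 283 (without array 4; 439 without array 3) to 1469 when an array was left out. Log2 ratios changed sign on arrays 1 and 2 alone for BCL2 (0.28), BAX (0.31), BID (-0.34) and BAD (0.022), for BAX after the GC loess (0.021), for BAK1 without array 3 (-0.023, the low end of a range to 0.22 when an array was left out), and for BID with the processed signals (-0.0053) and the series table (-0.0052). The fits on 1 orientation and the GC loess were chosen after seeing the data. The causes of these shifts were not tested, except that fits on fewer arrays have fewer data. Each array already sets treated against control RNA, so the fitted ratios are paired by array. No further pairing was fitted, because the arrays form 1 group. Slide and scan date were not fitted as a block, since all 4 arrays share both. Among the members, signal over background limits BCL2L1 and BCL2L11, which were well above it on 2 arrays. The same limit holds outside the members for BIRC3, XIAP, BMF and FOXO1, all called higher.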

Other observations

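Genes that act on the BCL2 family proteins themselves were also counted. Of 21 such genes tested, 3 were higher and 2 were lower, beside 24.3% and 13.0% of all probes tested. The median log2 ratio of the 21 was 0.04. DYNLL2, the dynein light chain known to hold BMF at the cytoskeleton, was lower on 4 of 4 arrays, at -0.26, -0.40, -0.37 and -0.52, a mean of -0.39 ± 0.10 (SD, n = 4 arrays; limma adjusted p = 0.0029). BTRC, an F-box subunit of a ubiquitin ligase that acts on MCL1 and BIM, was higher on 4 of 4 arrays at 0.33 ± 0.06 (SD; limma adjusted p = 0.0051). TMBIM6, known as BAX inhibitor 1, was called higher at 0.28 ± 0.34 (SD, n = 3 arrays; limma adjusted p = 0.034), with values of 0.58, -0.07 and 0.06 on arrays 2 to 4 and its spot on array 1 left out. PIM2, a kinase that phosphorylates BAD, was lower at -0.27 ± 0.29 (SD, n = 4 arrays; adjusted p = 0.029). The remaining call was USP9X, which removes ubiquitin from MCL1, at 0.21 ± 0.31 (SD; adjusted p = 0.047), named after its value was seen. TPT1 and YWHAZ showed wide gaps between the dye orientations: on arrays 1 to 4, TPT1 had 0.99, 1.01, -0.73 and -0.62, and YWHAZ had -0.80, -1.37, 0.46 and 0.67. Neither passed the threshold.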
